A study of Mus musculus with 4 samples.

Results

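Expression of 9 genes listed for the control of clock proteins after translation was compared between Bmal1 knockout and heterozygous mouse skin. They encode 4 protein kinase subunits (Csnk1d, Csnk1e, Csnk2a1 and Gsk3b), 3 F-box proteins of ubiquitin ligases (Fbxl21, Btrc and Fbxw11), the deubiquitinase Usp2 and the clock- and replication-associated protein Timeless. The genes were given by name, and all 9 were found among the 19938 genes named by a probe set with a single symbol, through 10 of 35557 probe sets. Csnk2a1 had 2 probe sets and each other gene had 1.

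Whole back skin was taken from C57Bl6 mice at postnatal day 22, when hair follicles rest (telogen). Collection was at ZT22, that is 22 h after lights on in a 12 h light and 12 h dark schedule, on standard chow. In the 2 heterozygous mice a single Bmal1 allele was mutant and the other wild type, and the 2 knockout mice lacked both copies in every tissue from the germline on. No array came from a mouse with 2 wild-type alleles, and 1 time of day was sampled, so a change in the timing of a rhythm and a change in its mean level cannot be told apart. Each mouse gave 1 Affymetrix whole-transcript array of total RNA.

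Clock proteins are made, phosphorylated, ubiquitinated and destroyed each day, and the speed of these steps sets the period of the clock. Casein kinase 1 delta and epsilon phosphorylate the PER proteins, and the phosphorylated form is bound by the F-box proteins beta-TrCP1 (Btrc) and beta-TrCP2 (Fbxw11), which hand it to a cullin 1 (SCF) ubiquitin ligase for degradation. The related F-box protein FBXL21 binds CRY proteins and affects their stability. Casein kinase 2 and GSK3 beta phosphorylate several clock proteins, and USP2 removes ubiquitin from some of them. BMAL1 with CLOCK activates genes through E-box elements, and transcription of Usp2 is known to cycle in many mouse tissues.

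All values are on a log2 scale after quantile normalization, differences are knockout minus heterozygous, and p-values come from limma fitted on 16341 probe sets with 1 gene and a mean signal above 6.67, the 25th percentile. Adjusted p is Benjamini-Hochberg over all of these, with a threshold of 0.05. With 2 arrays per genotype, precision is limited by the number of mice. In bulk skin, fewer cells of a type and less RNA per cell cannot be told apart. The targeted gene Arntl, the symbol of Bmal1, read 8.90 and 9.08 in heterozygous skin, against 8.29 and 8.16 in knockout skin (difference -0.76, SE 0.12, n = 2 per genotype). All 9 keratinocyte markers, among them Krt5, Krt14 and Krt10, were at or above the 88.9th percentile of every array. Their summed linear signal was 43250 and 33970 in the heterozygous arrays, against 44280 and 38480 in the knockout arrays. The median difference of these 9 was 0.16, and -0.09 without heterozygous array 2. In all 12 skeletal muscle markers the knockout pair lay above the heterozygous pair (differences 0.27 to 1.32), against 27.8% of all tested probe sets. The summed linear signal of these markers was 45250 to 45960 in the heterozygous and 62280 to 74030 in the knockout arrays. All 6 tested sebocyte markers were also higher (0.47 to 1.12). Of 7 immune cell markers 5 had both knockout arrays below both heterozygous ones, against 22.1% of all tested probe sets. The median of the 7 markers was -0.25 (-0.16 with the values as deposited and -0.12 after median centring). Among them H2-Aa, an MHC class II gene, fell (-0.54, SE 0.12, adjusted p = 0.0497), a call that ended under 10 of the alternatives, and the macrophage marker Cd68 differed by -0.65 (adjusted p = 0.073), passing under 3. The other macrophage markers of the list did not follow Cd68. Adgre1 differed by -0.13 (SE 0.12) and Csf1r by 0.08 (SE 0.13), both with overlapping genotypes. Of other MHC class II genes, H2-Eb1 differed by -0.36 and H2-Ab1 by 0.02. The muscle, sebocyte and immune lists moved with genotype, though not in every gene, and their part in the differences below was not tested.

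No member of the group passed the threshold. Of the 9 genes 8 were tested, and Fbxl21 lay under the signal filter. Adjusted p ran from 0.199 for Usp2 to 0.987 for Csnk1d, against 1.98% of all tested probe sets that passed (323, of which 241, or 1.47%, were higher and 82, or 0.502%, lower in the knockout). That count was 0 when probe sets with several symbols were tested too, and 77 without knockout array 1 and 986 without heterozygous array 1. At an unadjusted p under 0.05 there were 2 genes, Usp2 and Fbxw11, against 17.9% of tested probe sets, a share close to that of the members. Leaving out heterozygous array 2 or knockout array 1 left 0 of the members at this p, and leaving out either other array left 1, while there were 3 with the values as deposited and 3 after median centring. Usp2 and Fbxw11 were both higher in the knockout. Of all tested probe sets, 11.6% were at this p and higher, and 6.38% at this p and lower. All 8 tested genes had a positive difference, with a median of 0.16 and a range of 0.01 to 0.30. Over all tested probe sets 54.2% were positive, and over the 14919 tested genes the median was 0.02. The median of the members was 0.23 with the values as deposited and 0.27 after median centring, where that of all tested probe sets went from 0.02 to 0.07 and 0.10. In 6 of the 8 both knockout arrays lay above both heterozygous arrays, as in 27.8% of all tested probe sets; in 49.8% the genotypes did not overlap in either direction. The 8 genes share the same 4 arrays, so their common sign is not 8 independent observations.

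**Figure D1:**
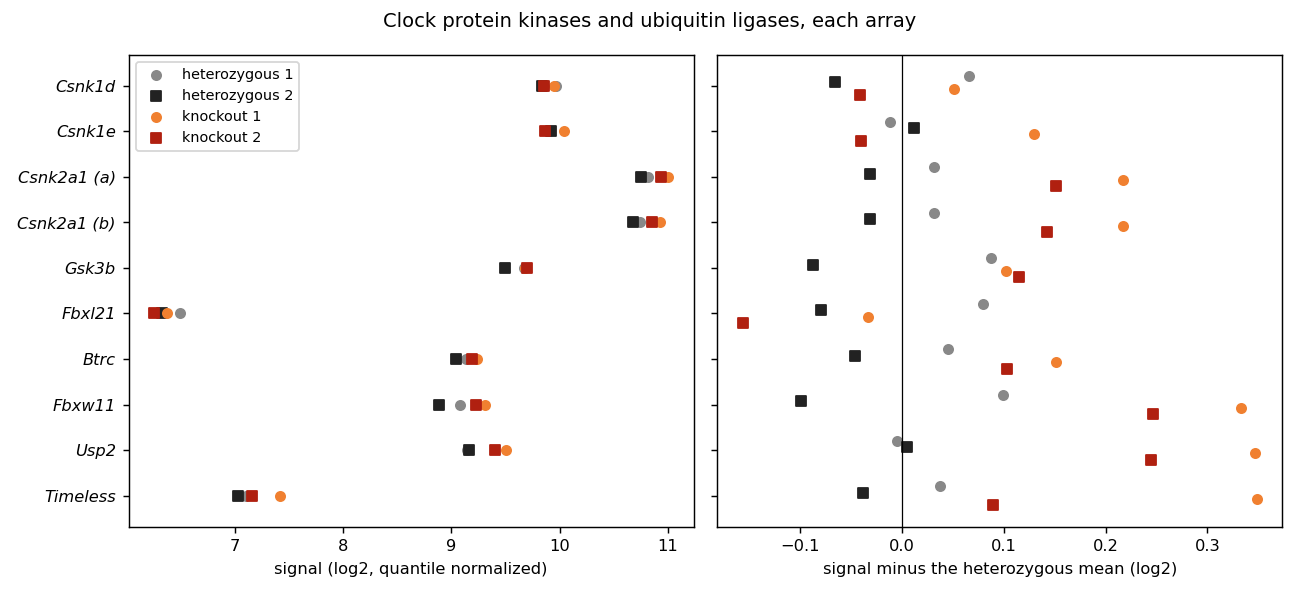
Signal of the 10 probe sets in each array, on the log2 scale at left and minus the heterozygous mean of the probe set at right (log2). Grey and black points are the 2 heterozygous arrays and orange and red points the 2 knockout arrays; (a) and (b) are the Csnk2a1 probe sets 10350819 and 10477073. Knockout points lie to the right of both heterozygous points for Usp2, Fbxw11, Timeless, Csnk2a1, Btrc and Gsk3b, and overlap them for Csnk1d and Csnk1e.

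Because BMAL1 acts through E-boxes, the RefSeq promoter windows of the members (250 bases before to 50 after an annotated start, GRCm38.p6) were searched on both strands. The motifs were the E-box CACGTG, the variant CACGTT, the D-box TTATGTAA or TTACGTAA bound by DBP and its relatives, and the half-site AGGTCA used by ROR and REV-ERB. Windows were found for 7 of the 9 genes (all but Csnk1d and Btrc), 10 in all, of which 4 were overlapping windows of Csnk1e. No window held either E-box form or the half-site, which occur in 7.15%, 4.68% and 16.3% of all 32851 windows, in the order given. The single match was a D-box in the Timeless window, at positions -157 to -150 relative to the start, a motif held by 1.06% of all windows. Shown here are the windows of the 2 genes with the smallest p and of Timeless, with the D-box in capitals.
Usp2: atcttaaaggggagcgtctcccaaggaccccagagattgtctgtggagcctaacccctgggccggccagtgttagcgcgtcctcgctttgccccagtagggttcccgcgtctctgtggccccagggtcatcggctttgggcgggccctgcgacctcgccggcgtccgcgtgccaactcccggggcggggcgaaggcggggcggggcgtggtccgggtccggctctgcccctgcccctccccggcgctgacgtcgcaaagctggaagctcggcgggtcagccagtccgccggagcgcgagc
Fbxw11: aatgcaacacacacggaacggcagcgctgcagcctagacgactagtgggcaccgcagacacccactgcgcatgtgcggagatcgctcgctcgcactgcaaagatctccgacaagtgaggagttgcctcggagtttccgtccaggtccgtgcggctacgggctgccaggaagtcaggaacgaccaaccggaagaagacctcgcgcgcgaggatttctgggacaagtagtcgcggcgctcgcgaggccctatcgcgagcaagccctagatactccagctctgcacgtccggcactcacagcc
Timeless: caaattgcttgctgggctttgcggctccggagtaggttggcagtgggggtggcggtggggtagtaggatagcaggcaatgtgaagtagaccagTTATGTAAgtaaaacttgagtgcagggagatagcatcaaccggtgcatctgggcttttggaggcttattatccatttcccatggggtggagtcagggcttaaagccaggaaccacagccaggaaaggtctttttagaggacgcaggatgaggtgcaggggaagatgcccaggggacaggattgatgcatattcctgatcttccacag
They lie at chr9:44084670-44084969, chr11:32642305-32642604 and chr10:128237816-128238115, all on the plus strand. The Fbxw11 window surrounds the first annotated start of the gene. Those of Usp2 and Timeless surround starts 17899 and 6003 bases downstream of the first. The Csnk1e windows, not shown, surround starts 13436 to 13761 bases downstream of it. The promoters of the longer transcripts of these genes were thus not searched. The base composition differed, with 71.7% G or C in the Usp2 window, 62.3% in that of Fbxw11 and 52.3% in that of Timeless. A motif match is a string of letters and does not show binding.

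Casein kinase 1 delta and epsilon, the paired kinases of the PER proteins, gave the smallest differences of the group. Csnk1d read 9.97 and 9.83 in heterozygous skin, against 9.95 and 9.86 in knockout skin. The knockout values lay between the heterozygous ones, and the difference was 0.01 (SE 0.11, adjusted p = 0.987 by limma, n = 2 per genotype). Its 95% interval, expressed as knockout over heterozygous signal, ran from 84.1% to 119.7%. Csnk1e read 9.90 and 9.92 in heterozygous skin, against 10.04 and 9.87 in knockout skin. Here knockout array 1 was the highest and knockout array 2 the lowest of the 4, with a difference of 0.04 (SE 0.11, adjusted p = 0.877) and an interval of 86.4% to 123.2%. The intervals leave room for a change of either sign of that size in each gene. The sign was not fixed by the data, since without knockout array 1 the differences were -0.04 for both genes, and without heterozygous array 2 that of Csnk1d was -0.06.

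Whether the paired genes changed unequally was read within each array on the quantile-normalized values, where a log2 shift common to both genes cancels. Csnk1d minus Csnk1e was 0.07 and -0.09 in heterozygous skin, against -0.09 and -0.01 in knockout skin, so the genotypes overlapped. The change in this ratio was -0.04 (exact two-sided permutation p = 0.667, where 0.333 is the smallest p that 2 against 2 arrays allow). Without heterozygous array 1 it was 0.04.

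Casein kinase 2, a constitutively active kinase that phosphorylates BMAL1 and PER2, was read by 2 probe sets for its catalytic subunit gene Csnk2a1. Probe set 10350819 gave 10.81 and 10.75 in heterozygous skin, against 11.00 and 10.93 in knockout skin. Probe set 10477073 gave 10.74 and 10.68, then 10.93 and 10.86. Both probe sets placed the knockout arrays above the heterozygous ones by similar amounts, 0.18 (SE 0.11) in each, with adjusted p of 0.421 and 0.435. They are not independent readings of the gene. In the order of probe sets on the array, 10477073 lies between neighbours of Csnk2a1 itself, while 10350819 lies between Tor1aip2 and Abl2. In the RefSeq gene order the pseudogene Csnk2a3 stands between that latter pair. RNA of the gene and of the pseudogene may thus be read by both probe sets, and the assignment is uncertain. Their sequences were not compared.

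GSK3 beta phosphorylates CRY2, PER2 and REV-ERB alpha, among many other proteins. Gsk3b read 9.67 and 9.49 in heterozygous skin, against 9.68 and 9.70 in knockout skin. The knockout arrays were almost equal and lay just above heterozygous array 1, while heterozygous array 2 was lower. The difference was 0.11 (SE 0.11, adjusted p = 0.667), which became 0.02 when heterozygous array 2 was left out and 0.20 when heterozygous array 1 was.

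Of the F-box genes, the beta-TrCP paralogs Btrc and Fbxw11 both had higher values in the knockout. Btrc read 9.13 and 9.04 in heterozygous skin, against 9.24 and 9.19 in knockout skin, a difference of 0.13 (SE 0.11, adjusted p = 0.588) that became 0.08 without heterozygous array 2. The groups did not overlap, but the gap between knockout array 2 and heterozygous array 1 was narrow. Fbxw11 read 9.08 and 8.88 in heterozygous skin, against 9.31 and 9.23 in knockout skin, again without overlap. Its difference was 0.29 (SE 0.12, unadjusted p = 0.035, adjusted p = 0.237), or 122.2% of the heterozygous signal. Without heterozygous array 2, the lowest of the 4, the Fbxw11 difference was 0.19. Within arrays, Btrc minus Fbxw11 was 0.05 and 0.16 in the heterozygous and -0.08 and -0.04 in the knockout arrays, so the balance of the paralogs differed without overlap. That change was -0.16 with an exact permutation p of 0.333, the smallest this design allows, which does not pass the threshold.

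Fbxl21, the F-box protein gene of the CRY pathway, was dim. It read 6.49 and 6.33 in heterozygous skin, against 6.38 and 6.25 in knockout skin, with a mean of 6.36 that lies under the filter. The groups overlapped, and in the fit without a filter the difference was -0.09 (SE 0.16, adjusted p = 0.828). A signal near background compresses differences, so a change of this gene may not be detectable here.

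Usp2, which encodes a ubiquitin-specific protease acting on PER1, CRY1 and BMAL1, had the largest difference of the 8 tested genes. It read 9.15 and 9.16 in heterozygous skin, against 9.50 and 9.40 in knockout skin. The heterozygous arrays were nearly equal, and both knockout arrays were above them by more than the spread within either pair. The knockout signal was 122.8% of the heterozygous (95% interval 103.6% to 145.6%), and the unadjusted p of 0.023 became an adjusted p of 0.199. The difference of 0.30 became 0.25 when knockout array 1 was left out and 0.35 when knockout array 2 was. The probe set summarizes the whole transcript and does not separate the short from the long Usp2 isoform, whose starts differ. By mean absolute distance between the 4 values, each centred on its own mean, the nearest of 16340 other probe sets were those of Bcl2l2 and Spop, at 0.0040 and 0.0042. So few arrays cannot tell a shared pattern from a chance one. No tested member had a negative difference, so no such neighbours were sought for one.

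**Figure D2:**
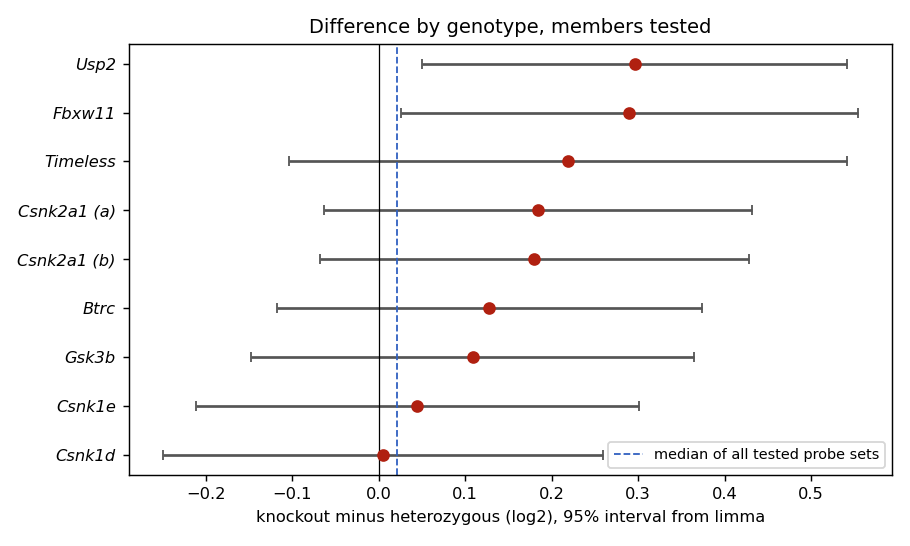
Difference between knockout and heterozygous arrays (log2) for the 9 tested probe sets of the 8 tested genes, with 95% intervals from limma and the median of all tested probe sets as a dashed line. The intervals of Usp2 and Fbxw11 exclude 0 before adjustment, and the other 7 include it.

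Timeless stabilizes replication forks together with TIPIN and can bind CRY and PER proteins; its name comes from the Drosophila clock gene. It read 7.10 and 7.03 in heterozygous skin, against 7.42 and 7.16 in knockout skin. All of the separation beyond a small gap came from knockout array 1, the highest. The difference was 0.22 (SE 0.14, adjusted p = 0.466), and without knockout array 1 it was 0.09. Of 9 tested proliferation markers none was higher at the adjusted threshold, and Ccnb2, cyclin B2, fell (-0.56, SE 0.11, adjusted p = 0.041), a call that ended under 8 of the alternatives, among them the values as deposited (0.066), the set with several-symbol probe sets (0.146) and the fit without knockout array 1 (0.255). Of the other markers, the mitotic or proliferation genes Mki67 (-0.50), Top2a (-0.29, tested probe set) and Cdk1 (-0.14, but 0.01 after median centring) had negative differences. The replication genes Rrm1 (0.36), Mcm4 (0.38), Mcm2 (0.33), Mcm6 (0.24) and Pcna (0.14) had positive ones. A dim Top2a probe set under the filter (mean 4.35) had the opposite sign, 0.27 (SE 0.22 in the fit without a filter). Some calls were gained elsewhere: Mcm4 (0.57, adjusted p = 0.037) and Mki67 (-0.64, adjusted p = 0.038) passed without heterozygous array 1, Mki67 with the replicate block (0.023) and Rrm1 after median centring (0.51, adjusted p = 0.047). Without heterozygous array 2 the differences of Mcm4 (0.20), Mcm2 (0.22), Pcna (0.044) and Top2a (-0.11) were smaller. Among the partners of Timeless in fork protection and checkpoint signalling, 7 of 8 were tested, none passed and the median was 0.09 (0.13 with the values as deposited, 0.16 after median centring, and 0.05 to 0.14 with 1 array left out, lowest without heterozygous array 1 and highest without heterozygous array 2). Tipin differed by 0.31 (SE 0.17), Ddx11, a helicase, by 0.27 (SE 0.15) and Rpa1, a single-strand DNA binding subunit, by 0.27 (SE 0.13), with adjusted p of 0.369, 0.360 and 0.310. In Tipin the groups overlapped, because heterozygous array 2 at 7.25 was low and heterozygous array 1 at 7.74 was level with the knockout arrays at 7.72 and 7.89. Without heterozygous array 2 the Tipin difference was 0.06. Rpa1 differed by 0.11 and Ddx11 by 0.16 when knockout array 1 was left out.

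**Figure D3:**
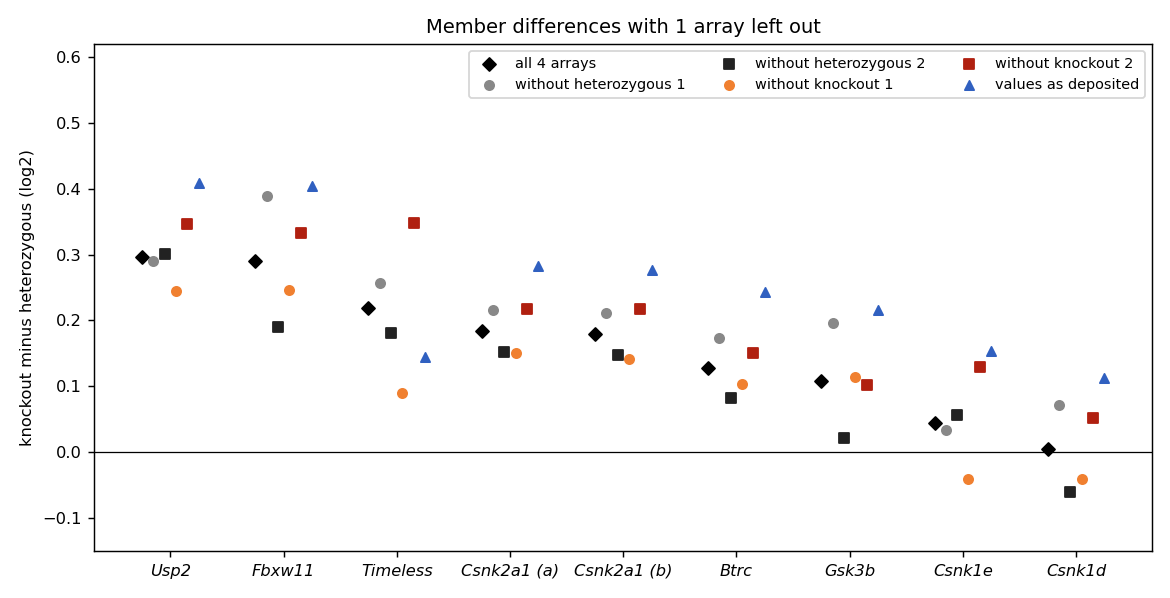
Difference between knockout and heterozygous arrays (log2, vertical axis) of each tested probe set with all 4 arrays, with each array left out in turn, and with the values as deposited. Usp2 stays between 0.25 and 0.35 with 1 array left out, Timeless runs from 0.09 to 0.35, and Csnk1d and Csnk1e cross 0.

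The rest of the machinery was read from lists of 51 genes, of which 44 had a probe set with 1 symbol and 43 were tested. In these, 1 gene rose, none fell, and the others did not pass, a share near the 1.98% of all tested probe sets. The median difference was 0.08, and 26 (60.5%) were positive, against 54.8% of all tested genes. The gene that rose was Prkaa2, the alpha 2 catalytic subunit of AMP-activated protein kinase, an energy sensor that phosphorylates CRY proteins. Prkaa2 read 8.59 and 8.81 in heterozygous skin, against 9.48 and 9.30 in knockout skin. The groups were well apart, with the knockout at 161.7% of the heterozygous signal (difference 0.69, SE 0.13, adjusted p = 0.026 by limma, n = 2 per genotype). This call ended without knockout array 1 (0.60, adjusted p = 0.161), with no filter (adjusted p = 0.0504), with all probe sets tested (0.317) and with probe sets of several symbols tested too (0.131). The gene of the other catalytic isoform, Prkaa1, differed by -0.03 (SE 0.13), with a sign that turned with the values as deposited (0.08) and without heterozygous array 1 (0.11).

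Prkaa2 is abundant in skeletal muscle. The muscle list had a median difference of 0.67, and that of the sebocyte list was also 0.67. All 12 muscle markers were higher in knockout array 1 than in knockout array 2, as were Prkaa2, Usp2 and Fbxw11. This order was not particular to muscle, since it also held for all 9 keratinocyte markers, 7 of the 8 tested members and 63.0% of all tested genes. The part of muscle RNA in these 3 genes was not tested.

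**Figure D4:**
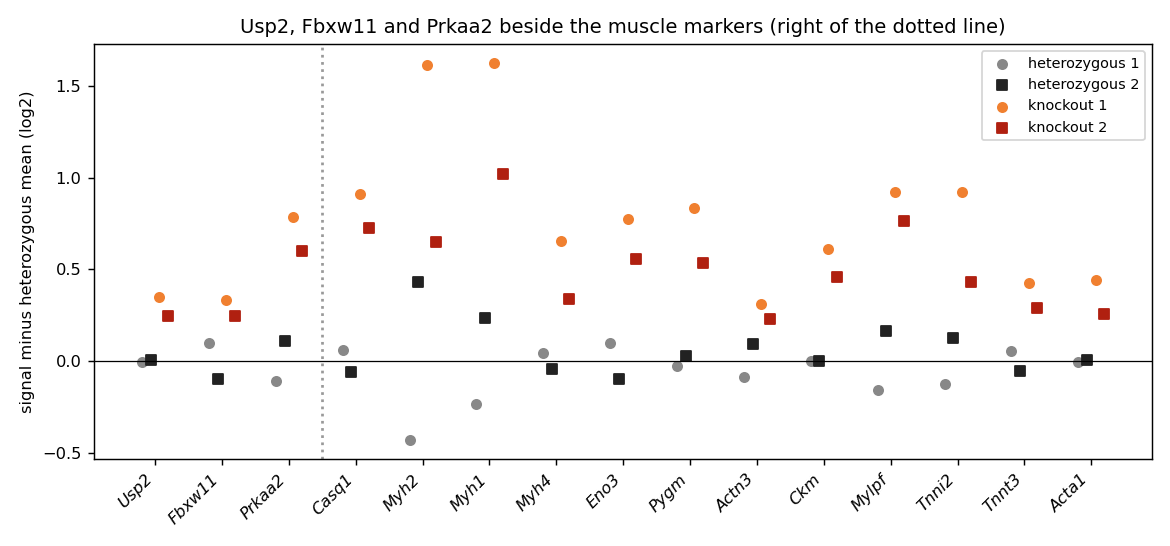
Signal in each array minus the heterozygous mean of the same gene (log2) for Usp2, Fbxw11 and Prkaa2 and, right of the dotted line, 12 skeletal muscle markers. Knockout array 1 is the highest of the 4 arrays for every gene shown, and knockout array 2 is above both heterozygous arrays for each.

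Other kinases of the clock, 15 tested, had a median of -0.0030, and besides Prkaa2 none passed. The sign of this median was not stable, at 0.09 with the values as deposited, 0.13 after median centring, 0.08 without heterozygous array 1, -0.06 without heterozygous array 2 and -0.04 without knockout array 1. Cdk1, the mitotic kinase, differed by -0.14 (SE 0.12), or by 0.01 after median centring, and Prkca, a protein kinase C, by 0.13 (SE 0.12), or 0.043 without heterozygous array 2. Csnk1a1, casein kinase 1 alpha, differed by 0.01, and by -0.10 without knockout array 1. Csnk2a2, the other catalytic subunit of casein kinase 2, differed by -0.07 and Gsk3a by -0.08, and both were positive after median centring (0.01 and 0.06). Prkca stayed positive under every alternative run, and the other 4 did not keep 1 sign.

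Phosphatases that oppose these kinases, 6 tested, had a median of 0.09 and none passed. The median was 0.20 with the values as deposited, 0.23 after median centring and 0.18 without heterozygous array 1. The catalytic subunits of protein phosphatase 1 were split. Ppp1ca differed by 0.28 (SE 0.12), or 0.19 without heterozygous array 2, and Ppp1cb by 0.27 (SE 0.12), while the probe sets of Ppp1cc differed by -0.13 and -0.17. Ppp5c, a phosphatase that acts on casein kinase 1 epsilon, differed by 0.24 (SE 0.12), or 0.12 without heterozygous array 2. Adjusted p was 0.245, 0.267 and 0.332 for Ppp1ca, Ppp1cb and Ppp5c.

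Ubiquitin ligase and deubiquitinase genes, 15 tested, had a median of 0.12 and none passed. The median was 0.18 with the values as deposited, 0.21 after median centring and 0.07 without heterozygous array 2. The smallest p belonged to Mdm2, a ligase that acts on PER2 (0.31, SE 0.14, adjusted p = 0.274), Cul4a, a cullin scaffold (0.31, SE 0.15, adjusted p = 0.305), and Ddb1, its adaptor (0.24, SE 0.12, adjusted p = 0.334). Without heterozygous array 2 the first of these, Mdm2, differed by 0.12 and Cul4a by 0.12, and without knockout array 1 Ddb1 differed by 0.12. The SCF core genes Cul1 and Skp1, which work with Btrc and Fbxw11, differed by 0.08 (0.035 without heterozygous array 2) and -0.03, and the Rbx1 probe sets by -0.14 and -0.11, where Skp1 (0.11) and both Rbx1 probe sets (0.02 and 0.04) turned positive after median centring.

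**Figure D5:**
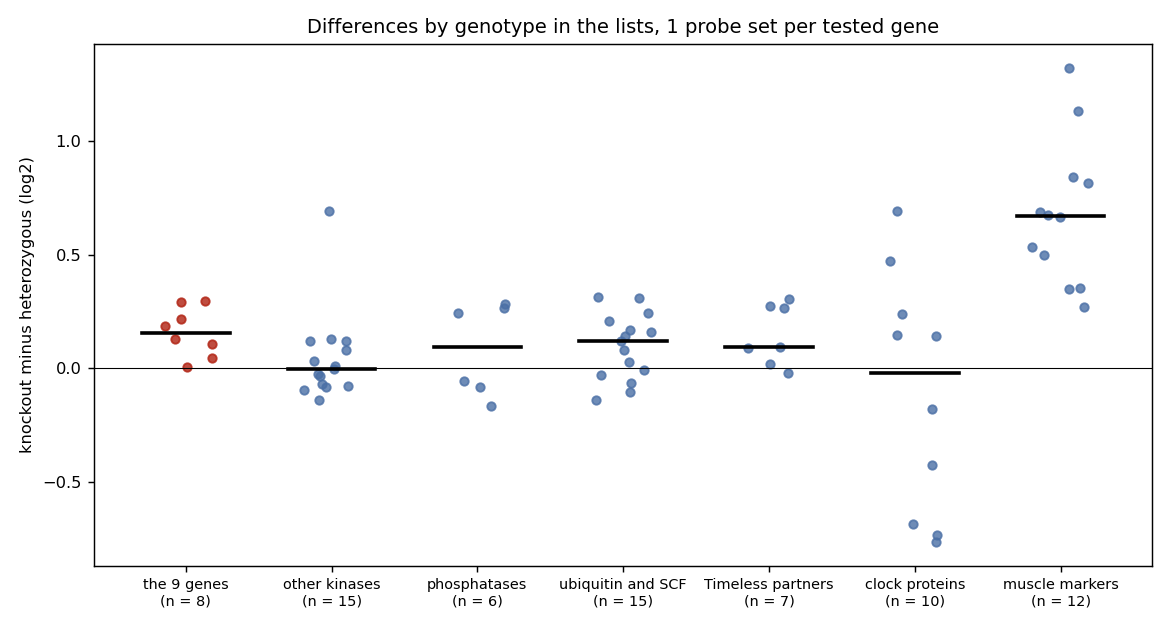
Difference between knockout and heterozygous arrays (log2, vertical axis) for each tested gene, with 1 probe set per gene, by list; black bars are medians. The 8 tested members lie between 0.01 and 0.30, and Prkaa2 at 0.69 stands above the other kinases. The clock proteins spread from -0.76 (Arntl, the targeted gene) to 0.69.

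The listed genes of clock proteins spread more widely, from -0.76 for Arntl, the targeted gene, to 0.69. Of 10 tested, Cry1 rose (0.69, SE 0.11, adjusted p = 0.015), and Nr1d1, REV-ERB alpha (-0.73, SE 0.13, adjusted p = 0.024), and Arntl (adjusted p = 0.015) fell. With probe sets of several symbols tested too, none of these passed, with adjusted p of 0.095 for Cry1, 0.126 for Nr1d1 and 0.102 for Arntl, and none did with all probe sets tested (0.303, 0.318 and 0.303). Nr1d1 also missed the threshold with no filter (0.0546) and without heterozygous array 2 (0.0504). Without knockout array 1 the adjusted p of Cry1 was 0.082 and without knockout array 2 that of Nr1d1 was 0.084. The other 7 did not pass. Cry2 differed by 0.47 and Nr1d2 by -0.68, Per1 by -0.42, Dbp by 0.24, Per3 by -0.18, and Per2 and Clock by 0.14 each. Of these, 3 passed under some alternatives. With the replicate block the adjusted p was 0.0091 for Nr1d2, 0.027 for Cry2 and 0.039 for Per1. Cry2 also passed with the values as deposited (0.037), after median centring (0.019), with the stricter filter (0.038) and with the robust prior (0.047), and Nr1d2 after median centring (0.020), with the robust prior (0.044) and without heterozygous array 1 (-0.91, adjusted p = 0.0091). Without heterozygous array 2, Nr1d2 differed by -0.46, Per3 by -0.083, Per2 by 0.028 and Clock by 0.061. By size, the 0.30 of Usp2 was exceeded by 6 of these 10 genes, Arntl among them.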

How the data were processed

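RNA of 4 whole-skin samples was measured on Affymetrix whole-transcript arrays. The submitters' processing notes name PLIER 2.0 and Affymetrix Expression Console 1.1.1. The deposited values were taken to be log2 from their range; no source used here states their scale or a step between arrays. Array quartiles differed by up to 0.34, so the 4 arrays were quantile normalized. PLIER averages probes along a transcript and can hide a change in part of it. Of 35557 probe sets, 21789 had 1 symbol, 1621 several and 12147 none; symbols of 21698 were updated by gene identifier with a GRCm38.p6 RefSeq table, also used for gene order. No source used here gives the annotation's build. Tested were 16341 probe sets with 1 symbol and a mean above the 25th percentile, with limma 3.58.1 in R 4.3.3 (lmFit, eBayes with a trend, 2 residual degrees of freedom), whose moderated SE is printed. The fit was run on simulated data with independent noise in each array, so that run does not cover arrays that deviate together. Members and lists were chosen with earlier results of these data known. Named are all members, Arntl, the clock proteins, the 3 genes of each other pathway list with the smallest p, and the genes nearest to Usp2 in pattern; markers, isoforms and SCF genes were added after their values were seen. Labels call the mice littermates. Alternatives were the values as deposited, median centring, offsets of 16 and 64, other filters and priors, other sets of probe sets, a replicate block and each array left out; testing probe sets with several symbols was added after the data were seen. Where 1 array of a genotype remained, it was taken to vary as the other genotype's pair does. Promoter sequences are from RefSeq.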

Additional observations from a re-analysis of the deposited data

How the results depend on the processing

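No member passed the adjusted threshold under any alternative run; the smallest adjusted p of a member was 0.079 (Usp2, median centring). The members at an unadjusted p under 0.05 numbered 3 with the values as deposited and 3 after median centring, 1 with all probe sets tested and 0 to 1 with 1 array left out. The count of all probe sets past the threshold, 323, was 544 with the values as deposited, 913 after median centring, 145 with no filter, 0 with all probe sets and 0 with probe sets of several symbols tested too, and 77 to 986 with 1 array left out. Of these calls 459 were higher and 85 lower with the values as deposited, and 780 and 133 after median centring. At an unadjusted p it was 3983 with all probe sets and 2713 with those of several symbols, and 1685 (without knockout array 1) to 3720 (without heterozygous array 1) with 1 array left out. The main fit had 2933 at this p, or 17.9% of 16341 probe sets. The share was lower with all probe sets (11.2% of 35557) and with those of several symbols (15.5% of 17557). With the values as deposited Usp2 differed by 0.41, Fbxw11 by 0.40 and Csnk1d by 0.11, while the median of all tested probe sets moved from 0.02 to 0.07. With the labelled replicate number as a replicate block, 1235 probe sets passed and no member did. Arrays with the same number deviated together (correlation 0.64 across probe sets), but there are only 2 pairs and the labels do not say what the number marks. Signs turned for Csnk1d (-0.061 to 0.071 with 1 array left out, negative without heterozygous array 2 and without knockout array 1 at -0.041), Csnk1e (-0.041 to 0.13), Csnk1d minus Csnk1e (-0.12 to 0.038), Csnk1a1 (-0.10 to 0.12), Prkaa1 (-0.17 to 0.11) and Skp1 (-0.12 to 0.063); the cause was not tested. They turned after median centring for Cdk1 (0.014), Csnk2a2 (0.013), Gsk3a (0.064), Prkaa1 (0.11), Skp1 (0.11) and the Rbx1 probe sets (0.016 and 0.039), and with the values as deposited for Gsk3a (0.029), Prkaa1 (0.079), Skp1 (0.070) and an Rbx1 probe set (0.0038). Dim probe sets such as Fbxl21 are limited by signal over background.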
